A study of Homo sapiens with 4 samples.

Results

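Heat shock proteins and the cytosolic chaperonin were followed here as 35 genes, chosen by name from the 57014 named rows of a count table. The study compared 22Rv1 cells, an established human prostate cancer cell line, in 2 states. The control libraries (n = 2) carry a guide against GFP, per their sample descriptions, and are labelled wild type. The CD276 knockout libraries (n = 2) carry a guide against CD276, the gene of the B7-H3 surface protein of the immunoglobulin superfamily. Both groups grew in the same serum-supplemented medium, no drug or heat treatment is named, and each holds the replicate numbers 1 and 3. No source used here says whether the knockout line is 1 clone or a pool, and no label says that replicates came from separate cultures. The p-values therefore measure only the spread between these libraries, which may be technical.

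Molecular chaperones bind unfolded protein chains and keep them from clumping while they fold. HSP70 proteins bind short exposed stretches in cycles of ATP hydrolysis that J-domain (HSP40) proteins start and nucleotide exchange factors end. HSP90 acts later, on nearly folded clients such as steroid hormone receptors and kinases. The CCT chaperonin (also TRiC) is a double ring with a different subunit at each place of a ring, and it folds actin and tubulin in its cavity. In mitochondria, HSPD1 (HSP60) with its lid HSPE1 (HSP10) forms a chaperonin of another family. HSF1 is the transcription factor that turns on many of these genes under heat stress, through promoter repeats called heat shock elements.

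Library sizes over named genes ran from 20079050 to 25802417 counts, and the 35 genes together held 1.53% to 1.69% of a library's counts. CD276 itself had 1058 and 1054 counts in the control libraries, against 621 and 679 in the knockout libraries. Its level was 50.9 ± 4.98 normalized CPM (counts scaled to a common library size; SD, n = 2) in the controls against 24.9 ± 1.84 in the knockouts. The log2 fold change was -1.03 ± 0.16 (SE; adjusted p = 0.00561). All 10 prostate luminal and cell line markers checked were detected, and 1 of them, KRT18, was lower in the knockouts (log2 fold change -0.68, adjusted p = 0.0370). The summed level of 5 leukocyte markers was 1.29 to 1.34 CPM in the controls and 0.800 to 2.20 CPM in the knockouts, with CD3E at 0 counts. The summed level of 6 fibroblast and endothelial markers was 47.7 to 51.5 CPM in the controls and 20.4 to 33.5 CPM in the knockouts, nearly all of it COL1A1, with PECAM1 at 0 counts. COL1A1 was lower in the knockouts (log2 fold change -1.001, adjusted p = 0.0139), while COL1A2, COL3A1 and DCN, at 0.179 to 2.16 CPM, had values of 0.61, 1.20 and 1.296 and did not pass. The part of these markers in the chaperone results was not tested.

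Of the 35 chaperone genes, 4 were higher and 3 lower in the knockout libraries at an adjusted p under 0.05 (edgeR's quasi-likelihood test, Benjamini-Hochberg over the 18043 genes tested). HSPD1, HSPA4L, DNAJC7 and DNAJB1 rose, by 1.44-fold to 2.20-fold, and HSPB1, HSPA1A and HSPA1B fell, with controls 1.49-fold to 1.76-fold above knockouts. The 28 others did not pass the test, among them both cytosolic HSP90 genes, all 8 CCT subunits and both heat shock factors. All 35 passed the filter on low counts, and 20.0% of them were called. Among all genes tested 22.8% were called, 9.87% higher and 12.9% lower, so the share among the chaperones was near the background. The median log2 fold change was 0.04 over the 35 genes and -0.00451 over all genes. Both knockout libraries lay above both controls for 12 of the genes and below both for 13, and the groups overlapped for 10. Among all genes tested the groups did not overlap for 65.9%.

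The calls needed both control libraries, while the fold changes of the 7 called genes kept their direction. Without control replicate 1, or without control replicate 3, none of the 35 genes was called at an adjusted p under 0.05. Across the whole table, calls also became far fewer in both directions. With either knockout replicate left out, more of the 35 genes were called, and so were far more genes of the whole table. All 7 genes called with the 4 libraries kept their calls there. With 1 control left out, the spread comes from the knockout pair alone. HSPA1B then had log2 fold changes of -0.58 and -0.57, HSPA4L 0.70 and 0.77, and HSPD1 1.00 and 1.28, without control replicate 1 and without control replicate 3 in turn. Scaling also moved the split: with library totals alone, which shift the median of all genes to 0.10, 6 members were higher and 2 lower, beside 2340 and 1781 genes of the table in place of 1780 and 2331.

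**Figure D1:**
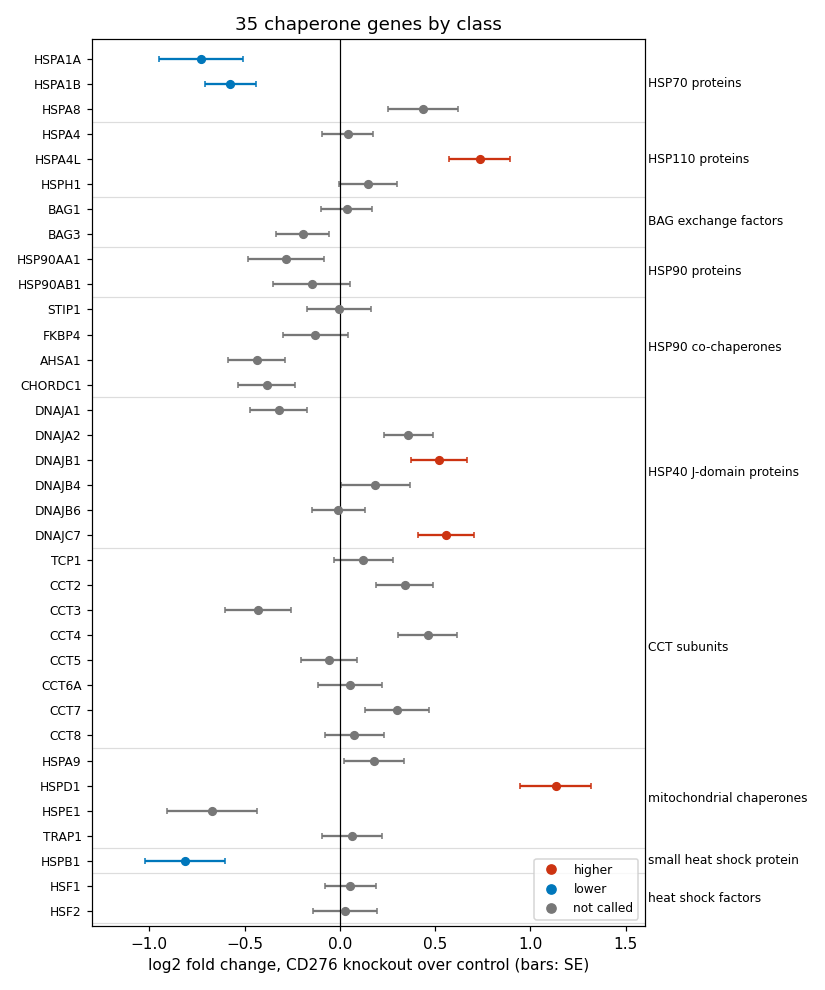
Log2 fold change of the knockout over the control libraries for the 35 genes, grouped by class (bars, SE; n = 2 libraries a group; colours, higher, lower or not called at an adjusted p of 0.05 in edgeR). The values run from -0.81 for HSPB1 to 1.13 for HSPD1, and most genes lie near 0.

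The promoters of several of the genes that moved carry heat shock elements, and so do those of several that did not. The search used RefSeq windows from 250 bases before to 50 bases after each start site on GRCh38.p14, and 32 of the 35 genes had a window. A 2-unit element was defined as GAANNTTC or TTCNNGAA, each of which reads the same on both strands. It was found for 18 of 32 chaperone genes (56.2%), against 16.2% of the 27305 genes with a window. The 18 genes included 3 that were called higher, 3 called lower and 12 not called. Among all genes tested 22.8% were called. DNAJC7 was the only called chaperone gene with a window but no element. The genes with the element had log2 fold changes from -0.81 to 1.13. Their median was 0.06, beside 0.04 for the chaperone genes without it. Such a median does not show rises and falls that offset each other. Whether the element bears on the calls was not tested. A 3-unit element, GAANNTTCNNGAA or its reverse complement TTCNNGAANNTTC, overlaps the 2-unit ones by construction. It was found for 7 of 32 chaperone genes (21.9%), against 0.608% of all genes. Of these 7, HSPD1 was higher, none was lower and 6 were not called (HSPA8, HSP90AA1, HSP90AB1, DNAJA1, DNAJB6 and CHORDC1). A match is a description of letters, not a measured binding site. The stretches of 30 bases below show the element in 8 genes that the results turn on, with the matching letters in capitals, on the strand of the gene and 5′ to 3′.
HSPA1A, chr6:31815426-31815455, plus strand, lower: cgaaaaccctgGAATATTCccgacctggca
HSPA1B, chr6:31827622-31827651, plus strand, lower: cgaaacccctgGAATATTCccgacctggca
HSPB1, chr7:76302480-76302509, plus strand, lower: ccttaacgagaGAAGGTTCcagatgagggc
DNAJB1, chr19:14518456-14518485, minus strand, higher: cgggcggggcgGAAGGTTCtggagggggct
HSPD1, chr2:197500061-197500090, minus strand, higher: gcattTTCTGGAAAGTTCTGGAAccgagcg
HSPA8, chr11:123062346-123062375, minus strand, not called: ggcgagcttGAAAGTTCCAGAAcgctgcgg
HSP90AA1, chr14:102087112-102087141, minus strand, not called: ggagggttcTTCCGGAAGGTTCgggaggct
HSP90AB1, chr6:44247769-44247798, plus strand, not called: gggagcaggTTCTGGAAGATTCatgggctc

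In HSPB1 and DNAJB1, whose calls went in opposite directions, the capital letters are the same, GAAGGTTC. The windows of these genes differ in other ways. DNAJB1 had further GAANNTTC matches, at -47 from the same start site and at 2 from another, while HSPB1 had no other match. The stretch of HSPA1A starts 117 bases before its RefSeq start site, and that of HSPA1B starts 116 bases before its own. The stretches of HSPA8, HSPD1 and HSP90AA1 overlap annotated exons of those genes, and that of HSPD1 also overlaps an annotated exon of HSPE1.

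The cytosolic HSP70 proteins were HSPA1A, HSPA1B and HSPA8. The first pair encodes the classic heat-inducible HSP70, from near-identical intronless genes on chromosome 6 (HSPA1A at 31815464-31817946 and HSPA1B at 31827735-31830255, GRCh38). HSPA8 encodes HSC70, the constitutive family member present in unstressed cells. HSPA1B had 261.8 and 262.1 CPM in control replicates 1 and 3, and 178.0 and 173.8 CPM in knockout replicates 1 and 3. The replicates of each group lay close together and the groups did not overlap. The log2 fold change was -0.57 ± 0.14 (SE; adjusted p = 0.0199), and it was lower in both knockout libraries.

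HSPA1A was counted at a far lower level, 8.60 and 10.1 CPM in the controls and 5.98 and 5.26 CPM in the knockouts. The groups did not overlap here either, and the log2 fold change was -0.73 ± 0.22 (adjusted p = 0.0456). This call lies close to the threshold and was lost in DESeq2 (adjusted p = 0.0918). The split of reads between the pair is uncertain, because their transcripts share much sequence. Of the 150-base stretches of HSPA1A's longest transcript, 67.1% also occur in HSPA1B, and 66.0% of HSPA1B's occur in HSPA1A. In addition, 36.5% of HSPA1B's exonic bases are shared on the same strand with AL671762.1. The sum of both genes does not depend on how counted reads were divided between them. The handling of reads with several matches is not given, and any that were dropped are missing from the sum. It was 270.3 and 272.2 CPM in the controls and 184.0 and 179.0 CPM in the knockouts, with a log2 difference of -0.58.

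HSPA8, the most abundant of the 3 per kilobase, had 986 and 1048 CPM in the controls and 1479 and 1270 CPM in the knockouts. Both knockout libraries were above both controls, but the log2 fold change of 0.43 ± 0.18 did not pass the test in edgeR (adjusted p = 0.117). In DESeq2 it did (log2 fold change 0.48, adjusted p = 0.0230). The ratio of the constitutive to the inducible gene was higher in both knockouts. HSPA8 had 3.77 and 4.0 counts for each HSPA1B count in the controls, against 8.31 and 7.31 in the knockouts. On the log2 scale this ratio was 1.96 ± 0.06 (SD, n = 2) against 2.96 ± 0.13. An exact two-sided permutation test over 2 against 2 libraries cannot go below 0.333, the value it gave.

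**Figure D2:**
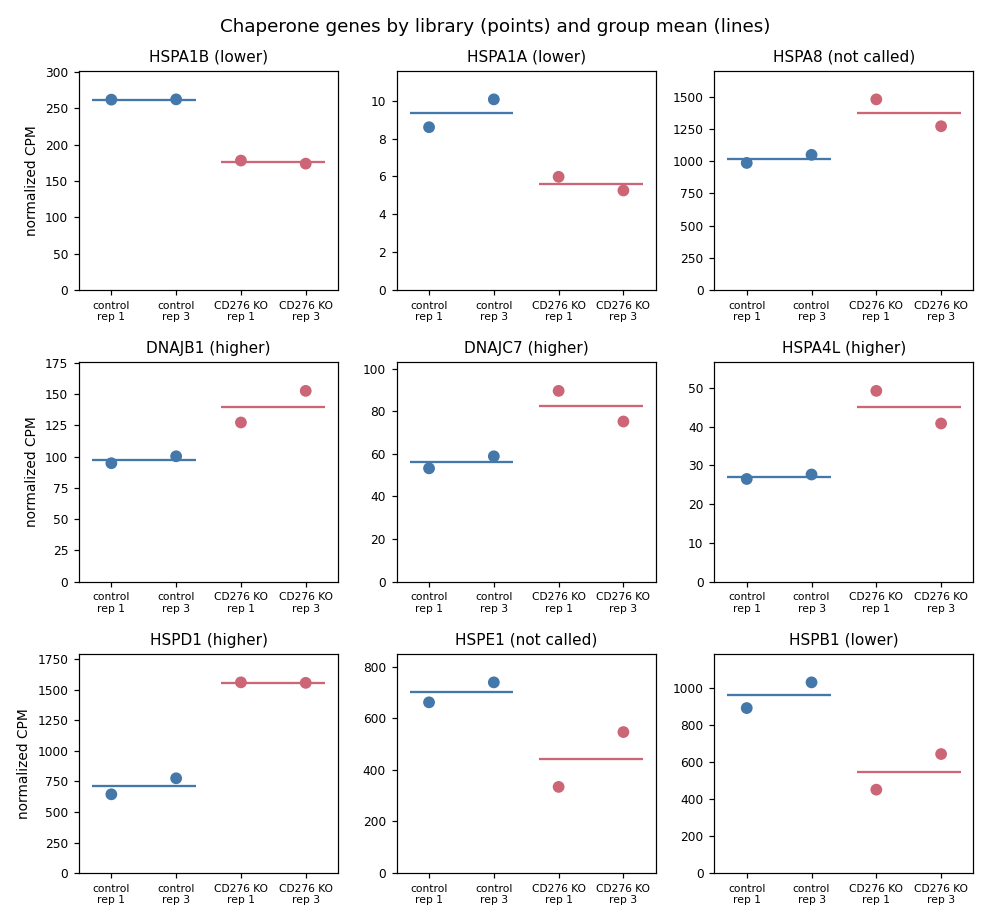
Normalized CPM (linear axes from 0) of 9 chaperone genes in each library (points) with the mean of each group (lines; n = 2). HSPD1 lies at 1562 and 1558 CPM in the knockouts against 645 and 776 CPM in the controls, while HSPE1 and HSPB1 lie below the controls and their knockout libraries stand apart from each other.

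The HSP110 proteins are large relatives of HSP70 that act as its exchange factors, and 1 of the 3 rose. HSPA4L (APG-1), at 2.33 CPM per kilobase the lowest of the 35 genes in the controls, had 26.5 and 27.6 CPM in the controls and 49.2 and 40.8 CPM in the knockouts. The knockouts were 1.66-fold higher (log2 fold change 0.73 ± 0.16, adjusted p = 0.0154), and the groups did not overlap. Of the exonic bases of HSPA4L, 6.2% are overlapped by opposite-strand genes. HSPA4 (APG-2), the most abundant per kilobase of the class, had 184.9 and 195.7 CPM in the controls and 194.8 and 196.6 CPM in the knockouts. Its groups overlapped, with a log2 fold change of 0.04 ± 0.13 (adjusted p = 0.853). HSPH1 (HSP105), a heat-inducible member, had 86.3 CPM in knockout replicate 1 but 70.7 CPM in knockout replicate 3, within its control values of 66.6 and 75.3 CPM. The exchange factors BAG1 and BAG3 did not pass the test, with log2 fold changes of 0.04 and -0.19. BAG1, the more abundant of these per kilobase, had 151.1 and 154.3 CPM in the controls and 159.9 and 153.0 CPM in the knockouts.

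Among the 6 J-domain proteins, which deliver clients to HSP70 and start its ATP hydrolysis, 2 rose and none fell. DNAJB1 (HSP40), the classic stress-inducible partner of HSP70, had 94.7 and 100.3 CPM in the controls and 127.3 and 152.6 CPM in the knockouts. The groups did not overlap, and the level was 1.44-fold higher in the knockouts (log2 fold change 0.52 ± 0.15, adjusted p = 0.0352). DNAJC7 (TPR2), a co-chaperone that binds both HSP70 and HSP90, had 53.2 and 58.8 CPM in the controls and 89.5 and 75.1 CPM in the knockouts. It was 1.47-fold higher (log2 fold change 0.56 ± 0.15, adjusted p = 0.0296), again with no overlap between groups. Opposite-strand genes overlap 9.4% of the exonic bases of DNAJC7 and 6.2% of those of DNAJB1. No source used here says whether strand was used in counting, and without it such reads cannot be told apart.

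DNAJA1, the most abundant J-domain gene per kilobase, lay the other way, at 475.6 and 475.7 CPM in the controls and 373.6 and 388.4 CPM in the knockouts. Its log2 fold change of -0.32 ± 0.15 did not pass the test (adjusted p = 0.152), although the groups did not overlap. For each DNAJA1 count there were 0.199 and 0.211 DNAJB1 counts in the controls, against 0.341 and 0.393 in the knockouts. DNAJA2 had a log2 fold change of 0.36 ± 0.13 with an adjusted p of 0.0764. DNAJB4 and DNAJB6 gave 0.19 and -0.01, and the DNAJB6 groups overlapped.

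Neither cytosolic HSP90 gene passed the test. HSP90AB1, the constitutive HSP90 beta and the most abundant of the 35 genes per kilobase, had 2518 and 2650 CPM in the controls and 2172 and 2490 CPM in the knockouts. HSP90AA1, the stress-inducible HSP90 alpha, had 2195 and 2231 CPM in the controls and 1652 and 1990 CPM in the knockouts. For both genes, knockout replicate 1 was the lowest library and knockout replicate 3 lay nearer to the controls. The log2 fold changes were -0.15 ± 0.20 (adjusted p = 0.625) and -0.28 ± 0.20 (adjusted p = 0.331). HSP90AA1 counts were 0.872 and 0.842 of those of HSP90AB1 in the controls, against 0.760 and 0.799 in the knockouts.

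The 4 HSP90 co-chaperones likewise gave no call, and all 4 log2 fold changes were below 0. AHSA1, the activator of the HSP90 ATPase, had 235.2 and 224.3 CPM in the controls and 153.5 and 185.8 CPM in the knockouts. Its log2 fold change was -0.44 ± 0.15 with an adjusted p of 0.0661. CHORDC1, an HSP90 partner of the CHORD family, gave -0.38 ± 0.15 (adjusted p = 0.0926). FKBP4 (FKBP52), an immunophilin that binds HSP90 and steroid receptor complexes and has the highest level per kilobase of the 4, had 784.6 and 809.0 CPM in the controls and 677.8 and 779.3 CPM in the knockouts. STIP1 (HOP), which hands clients from HSP70 to HSP90, had overlapping groups and a log2 fold change of -0.00424. The sign of the STIP1 value changed with the scaling, reaching 0.10 with library totals alone.

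The 8 CCT subunits are needed in equal numbers in the assembled ring, and none of their genes was called in either direction. At an unadjusted p under 0.05 there was 1 higher and 1 lower subunit, and DESeq2 called 1 higher and 0 lower. CCT3 (CCT gamma), the most abundant subunit gene per kilobase in the controls, had 928 and 848 CPM in the controls and 616 and 703 CPM in the knockouts. CCT4 (CCT delta) had 230.6 and 240.3 CPM in the controls and 294.5 and 354.5 CPM in the knockouts. Both showed no overlap between groups, in opposite directions. Their log2 fold changes were -0.43 ± 0.17 (adjusted p = 0.103) and 0.46 ± 0.15 (adjusted p = 0.0613), and the DESeq2 call was CCT4, with an adjusted p of 0.0153.

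The other 6 subunits had log2 fold changes from -0.06 for CCT5 to 0.34 for CCT2, with TCP1 (CCT alpha) at 0.12, CCT6A at 0.05, CCT7 at 0.30 and CCT8 at 0.07. CCT6A and CCT8 had overlapping groups. CCT5 shares 30.1% of its exonic bases with an opposite-strand gene and CCT4 12.6%. Summed over the 8 genes, the level was 3957 and 3947 CPM in the controls and 3989 and 4235 CPM in the knockouts.

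Per kilobase of exon, the makeup of that sum differed between the groups. CCT3 gave 23.2% and 21.2% of the summed level in the controls, against 15.1% and 16.2% in the knockouts, where it was no longer the highest subunit. CCT7 (CCT eta) gave 15.4% and 16.6% in the controls, against 17.9% and 19.5% in the knockouts. CCT5 was the lowest subunit in each library by this length, at 5.84% to 6.56%. The highest subunit was 3.01 to 3.54 times the lowest across the 4 libraries, so the messages were not equal in either group. These shares use the union of annotated exons as the length. With the longest transcript instead, CCT4 was the lowest in the control mean, at 93.4 CPM per kilobase against 103.1 for CCT5, and the highest subunit was 3.27 to 4.72 times the lowest.

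**Figure D3:**
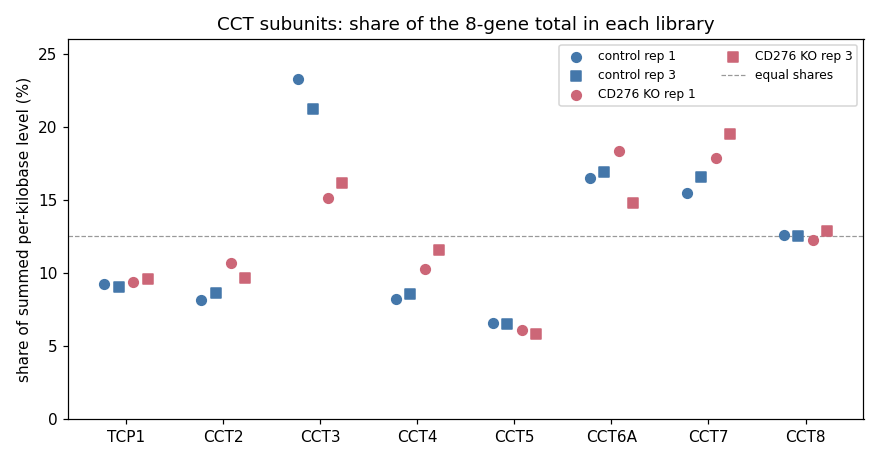
Share (%) of each CCT subunit gene in the summed per-kilobase level of the 8 genes, for each of the 4 libraries (points), with a dashed line at equal shares. CCT3 is at 21.2% and 23.2% in the controls and at 15.1% and 16.2% in the knockouts, while CCT4, CCT7 and CCT2 lie higher in the knockouts.

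Of the 4 mitochondrial chaperones 1 was called, and it had the largest fold change of the 35 genes in either direction. HSPD1, the HSP60 subunit of the mitochondrial chaperonin, had 645 and 776 CPM in the controls and 1562 and 1558 CPM in the knockouts. The knockout libraries agreed closely and lay 2.20-fold above the control mean. The log2 fold change was 1.13 ± 0.19 (adjusted p = 0.00674), and HSPD1 was the 1 chaperone gene that also passed a threshold of 0.01. Without 1 of the controls its adjusted p rose to as much as 0.210, with the direction kept.

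HSPE1, the lid of the same chaperonin, lay below the controls instead. It had 662 and 739 CPM in the controls and 334 and 547 CPM in the knockouts, with knockout replicate 1 well below knockout replicate 3. The groups did not overlap, but the log2 fold change of -0.67 ± 0.24 did not pass edgeR's test (adjusted p = 0.0706). It passed in DESeq2, at -0.63 with an adjusted p of 0.0176. HSPD1 counts were 0.974 and 1.05 times those of HSPE1 in the controls, against 4.68 and 2.85 times in the knockouts. On the log2 scale the ratio was 0.02 ± 0.08 (SD, n = 2) in the controls and 1.87 ± 0.51 in the knockouts, with 0.333 as the smallest p that the exact two-sided permutation test allows and gave.

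The genes lie on opposite strands of chromosome 2, where the annotated span of HSPD1 contains that of HSPE1 (HSPD1 at 197486581-197516737 on the minus strand and HSPE1 at 197499994-197503457 on the plus strand, GRCh38). RefSeq gives HSPD1 a start site at 197500274, which is 105 bases from the HSPE1 start at 197500379, and their promoter windows share 204 bases. This shared window holds no heat shock element of the kinds searched. A further HSPD1 start, at 197499840, lies 539 bases away, and its window holds the 3-unit element shown above. The capital letters run from 197500068 to 197500085, also upstream of the HSPE1 start. They fall outside the HSPE1 window, which begins at 197500129, so the search did not count them for HSPE1. The table gives no counts by transcript, so the use of the start sites was not measured. HSPE1 shares 14.2% of its exonic bases with HSPD1 on the opposite strand, and 9.7% with the read-through gene HSPE1-MOB4 on its own strand, which had 4 to 17 counts a library. HSPD1 in turn shares 6.6% of its exonic bases with HSPE1. The use of strand in counting is not given, so reads from these shared bases cannot be told apart.

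HSPA9 (mortalin), the mitochondrial HSP70 that pulls proteins through the import channel, had 557 and 562 CPM in the controls and 632 and 638 CPM in the knockouts. Its replicates agreed closely and the groups did not overlap, yet the log2 fold change of 0.18 ± 0.16 did not pass (adjusted p = 0.430). TRAP1, the mitochondrial HSP90, had overlapping groups and a log2 fold change of 0.07 ± 0.16. Opposite-strand genes overlap 29.3% of the exonic bases of TRAP1.

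HSPB1 (HSP27), a small heat shock protein that holds unfolded clients without using ATP, had the largest fall. It had 894 and 1033 CPM in the controls and 452 and 645 CPM in the knockouts. The groups did not overlap, and knockout replicate 1 was again lower than knockout replicate 3. Controls were 1.76-fold above knockouts (log2 fold change -0.81 ± 0.21, adjusted p = 0.0277). The call was lost with offsets for GC content and length, at -0.37 with an adjusted p of 0.0622. In the controls HSPB1 had 590 CPM per kilobase, the next highest level after HSP90AB1 at 867. By the longest transcript HSPE1, at 737, lay above HSPB1, at 662.

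The transcription factors of the heat shock response did not pass the test. HSF1, the main factor for the response to heat, had 86.4 and 83.3 CPM in the controls and 84.8 and 91.6 CPM in the knockouts. HSF2, a related factor, lay between 19.7 and 22.8 CPM. Both had overlapping groups, with log2 fold changes of 0.06 ± 0.13 (adjusted p = 0.791) and 0.03 ± 0.17 (adjusted p = 0.926). The level of a message says nothing of HSF1's activity, which is controlled largely on the protein.

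Each knockout library was also set against the mean of the controls. Knockout replicate 1 gave a median log2 difference of -0.01 over the 35 genes, and knockout replicate 3 gave 0.05. HSPD1 was at 1.14 and 1.13 in the respective libraries, and HSPA1B was at -0.56 and -0.59. HSPE1, by contrast, was at -1.07 and -0.36, and HSPB1 at -1.09 and -0.58. The calls for HSPD1 and HSPA1B thus have nearly the same size in both knockout libraries, and those libraries differ most for HSPE1 and HSPB1.

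**Figure D4:**
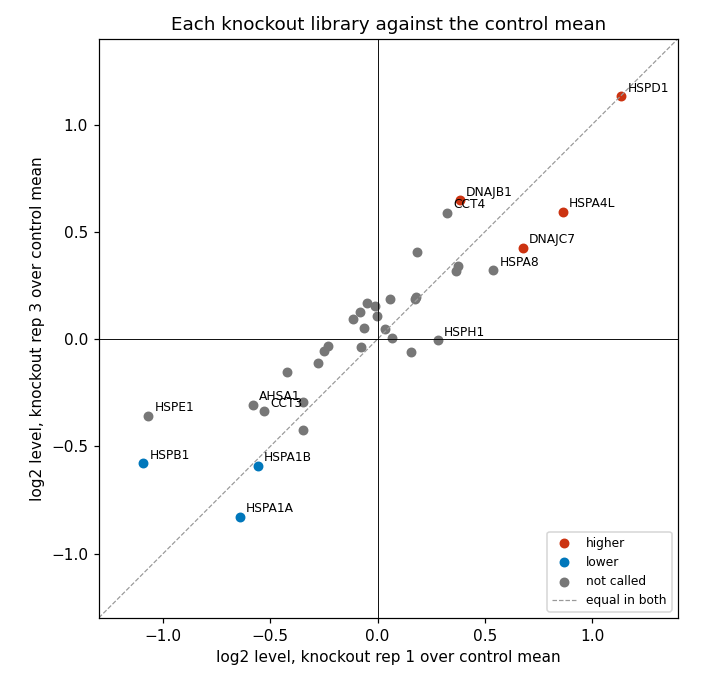
Log2 level of the 35 genes in knockout replicate 1 (horizontal) and knockout replicate 3 (vertical), each over the mean of the 2 controls, with a dashed line where both are equal. The 4 genes called higher and the 3 called lower lie on the same side of 0 in both libraries, and HSPE1 and HSPB1 lie off the line.

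Transcript length and GC content had weak to modest correlations with the fold changes. Across the 35 genes, which share the same 4 libraries and are not independent replicates, Pearson's r of the log2 fold change was 0.32 with the log2 length of the longest transcript and -0.39 with GC content. Spearman's rho was 0.13 and -0.38. Over the 17772 tested genes with both properties, r was 0.25 for length and -0.05 for GC content, and rho was 0.22 and -0.14. HSPB1 has a longest transcript of 1455 bases at 63.6% GC, HSPE1 one of 950 bases at 46.6% GC, and HSPA4L one of 10790 bases at 39.3% GC.

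With both properties as offsets in edgeR, HSPD1, HSPA4L, DNAJB1, DNAJC7 and HSPA1B kept their calls, HSPD1 at a log2 fold change of 0.99 (adjusted p = 0.00238). HSPB1 and HSPA1A lost theirs, HSPA1A at -0.60 with an adjusted p of 0.0828. A further 5 genes passed, each in the lower direction: CCT3 and CHORDC1 at -0.52, HSPE1 at -0.52, DNAJA1 at -0.46 and AHSA1 at -0.34. Their adjusted p-values ran from 0.0182 to 0.0469. The members called lower were then 6, against 3 without the offsets.

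**Figure D5:**
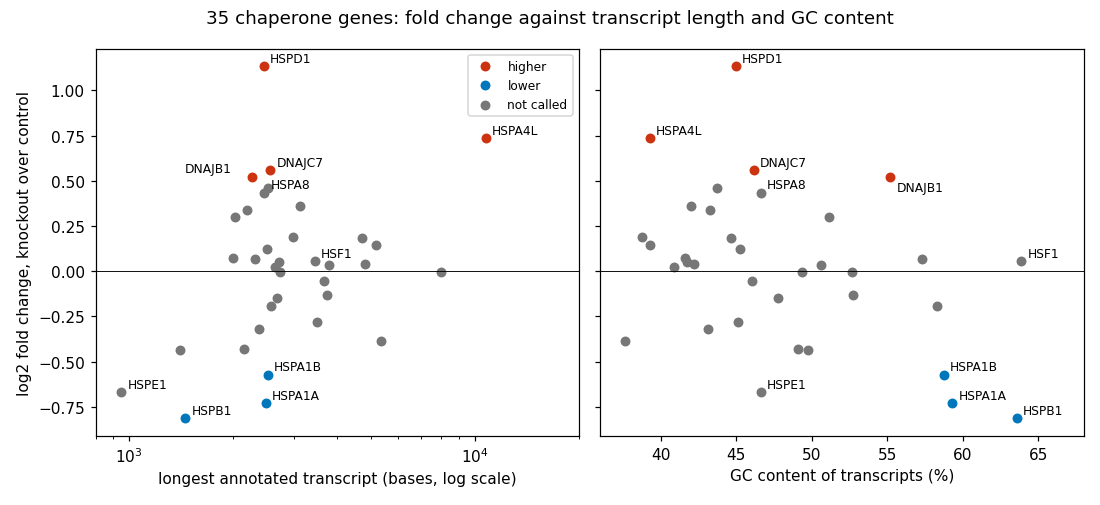
Log2 fold change of the 35 genes against the length of the longest annotated transcript (left, bases on a log axis) and the GC content of the transcripts (right, %), coloured by call. The 3 genes called lower lie at 58.8% to 63.6% GC, while HSF1 at 63.9% GC lies near 0.

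The rest of the chaperone network was read from lists of genes by textbook role. Of 113 further genes tested, 20 were higher and 13 lower, 29.2% called beside 22.8% of all genes, with a median log2 fold change of 0.11. Without control replicate 1 these counts were 0 and 1, and without control replicate 3 they were 0 and 3. Of 14 other HSP70 proteins and exchange factors, 5 rose and none fell. ST13 (HIP), which steadies the ADP-bound state of HSP70, went from 175.3 and 175.2 CPM to 256.4 and 276.4 CPM (log2 fold change 0.60, adjusted p = 0.0179). The exchange factors BAG4 and BAG5 gave 0.67 and 0.65, unlike BAG1 and BAG3 above, which were not called.

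Of 20 other J-domain proteins 3 rose and 2 fell. DNAJC2 (ZRF1, MPP11), a partner of HSP70 at the ribosome, went from 82.8 and 75.5 CPM to 36.4 and 38.5 CPM (log2 fold change -1.08 ± 0.14, adjusted p = 0.00367). DNAJC6 (auxilin), which helps to strip clathrin coats, gave 1.08, and DNAJC14 gave 0.98. DNAJC14 shares 34.9% of its exonic bases with opposite-strand genes and 23.2% with a gene on its own strand.

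Of 14 other HSP90 co-chaperones 3 rose and 2 fell. FKBP5 (FKBP51), an immunophilin that binds steroid receptor complexes, went from 203.4 and 213.6 CPM to 357.6 and 354.2 CPM. Its log2 fold change was 0.77 ± 0.14 (adjusted p = 0.00925), beside -0.13 for its relative FKBP4, which was not called. PTGES3 (p23), which binds the closed form of HSP90, gave 0.61, and TTC4 gave 0.95 with 52.4% of its exonic bases shared on the same strand.

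Among 13 prefoldin subunits, which pass unfolded actin and tubulin to CCT, and CCT regulators, 1 rose and 3 fell. The prefoldin subunits PFDN6 and PFDN2 gave -0.89 and -0.65, and UXT, of a prefoldin-like complex, gave -0.57. The UXT call was lost with the GC and length offsets (-0.33, adjusted p = 0.0688). For both PFDN6 and PFDN2 knockout replicate 1 was the lower of the knockouts, at 77.04 and 167.5 CPM against 115.6 and 230.4 CPM. PFDN6 shares 32.2% and UXT 26.5% of their exonic bases with opposite-strand genes.

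Of 16 tested genes for the CCT clients actin and tubulin and the tubulin cofactors, 2 rose and none fell. The alpha-tubulins TUBA1C and TUBA1B gave 0.71 and 0.67, with 25% and 36.6% of their exonic bases shared on the opposite strand. TBCB, a tubulin folding cofactor, gave -0.56 and did not pass (adjusted p = 0.0626).

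In mitochondria, 3 of 13 tested J proteins, exchange factors and proteases rose and 1 fell. SPG7 (paraplegin), a subunit of an inner membrane protease, went from 176.5 and 153.6 CPM to 81.8 and 84.6 CPM (log2 fold change -0.99 ± 0.14, adjusted p = 0.00468). The protease subunits CLPX and YME1L1 gave 0.69 and 0.56.

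Of 5 tested other small heat shock proteins 1 fell. HSPB6 (HSP20) went from 812.0 and 931.1 CPM to 465.1 and 549.4 CPM (log2 fold change -0.78 ± 0.18, adjusted p = 0.0179), and 38.2% of its exonic bases lie opposite another gene. With the GC and length offsets this call was lost, at -0.30 with an adjusted p of 0.134. HSPB11 and HSPB8 gave -0.51 and 0.71 and did not pass, with adjusted p-values of 0.0587 and 0.0669.

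Of 4 tested other heat shock factors and regulators 2 fell. HSF4, a factor best known from the lens, went from 61.1 and 57.9 CPM to 21.8 and 19.8 CPM (log2 fold change -1.52 ± 0.15, adjusted p = 0.00213). Another gene on its own strand overlaps 31.4% of its exonic bases. HSBP1L1 gave -0.57, a call lost with the offsets (-0.37, adjusted p = 0.0694) and in DESeq2 (adjusted p = 0.0512). HSBP1, a binding partner of HSF1, gave 0.48 and did not pass (adjusted p = 0.0634).

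Of 14 endoplasmic reticulum chaperones 3 rose and 2 fell. The disulfide isomerases PDIA3 and PDIA6 gave 0.87 and 0.83, and DNAJB9, a J-domain partner of the HSP70 of that compartment, gave 0.81. PDIA3 shares 18.9% and PDIA6 25.2% of their exonic bases with opposite-strand genes.

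Among 15 classic heat-inducible genes, a list that overlaps the 35, 3 were higher (HSPD1, HSPA4L and DNAJB1) and 3 lower (HSPB1, HSPA1A and HSPA1B). The share called was 40%, beside 22.8% of all genes tested, and the median log2 fold change was 0.15. All 6 called genes are among the 35 and were counted above, so they add no separate evidence. HSPA6 and CRYAB, which are strongly induced by heat, were near the limit of counting, at 0.419 to 0.928 CPM and 0.419 to 0.966 CPM.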

How the data were processed

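Poly(A)-selected RNA of 4 libraries was sequenced as paired reads, per the labels' protocols. The deposited values are raw counts for each gene, in a single table of the authors. Trimmomatic 0.36, STAR 2.5.2b, featureCounts from Subread 1.5.2 and the GRCh38 build are named in the submitters' processing notes. The annotation release, the use of strand and the handling of reads with several matches are not given. Of 57500 rows, 486 without a gene name (0.0191% to 0.0290% of a library) were left out. 0 columns were unmapped.

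The rest was computed from these counts: filterByExpr, TMM scaling (factors 0.962, 0.965, 1.07 and 1.00) and R 4.3.3 with edgeR 4.0.16 (a robust glmQLFit on the group, 2 residual degrees of freedom), with Benjamini-Hochberg adjustment over 18043 genes and a threshold of 0.05. DESeq2 1.42.0 and limma 3.58.1 (voom) were alternatives. CPM is normalized CPM, and 1 CPM is 19.4 to 26.3 counts. The SE is the log2 fold change over the square root of F. Levels per kilobase use the union of GENCODE 29 exons, and overlaps and GC content come from the same annotation.

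The members and lists were chosen with earlier results of these data known. Values in every library are given for each called member and the most abundant member per kilobase of each class, and for some others picked after their values were seen. Of each list of other chaperone genes, the 3 with the smallest p are named. TBCE was not analysed here.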

Additional observations from a re-analysis of the deposited data

How the results depend on the processing

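All 7 calls kept their direction under every alternative run. With 2 libraries a group, leaving 1 out makes the lone library borrow the spread of the other group. The counts then ran from 0 to 11 members higher and 0 to 9 lower, 45 to 4795 genes of the table higher and 267 to 4471 lower, and 0 to 41 genes of the other chaperone lists higher and 1 to 30 lower. At an adjusted p under 0.01, 1 member was higher and 0 lower, with 361 and 675 genes of the table and 3 and 3 of the lists. GC and length offsets gave 6 lower members, and 5 together with the replicate block. Library totals gave 7 lower list genes. RLE scaling and library totals lost HSPA1A, as did DESeq2. The cause was not tested.

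No label says what libraries of the same replicate number share. Deviations of same-numbered libraries correlated at -0.0152, a single value that cannot show that nothing is shared. The replicate block kept all 7 calls, added HSPE1 for 4 higher and 4 lower members, and gave 2062 and 2781 genes of the table.

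The sign changes were in genes that were not called. Their log2 fold changes in the edgeR fit above ran from -0.06 for CCT5 to 0.18 for HSPA9. STIP1 gave 0.0139 with RLE scaling, 0.10 with library totals, 0.0234 with no filter, 0.00044 in voom, 0.0023 with the replicate block, 0.0389 in DESeq2 and -0.15 to 0.15 without 1 library. DNAJB6 gave 0.0102, 0.0974, 0.0202 and 0.0351 under RLE, totals, no filter and DESeq2, and -0.0598 to 0.11 without 1 library. CCT5 gave 0.0508 with totals. HSF2 gave -0.00067 with upper quartile scaling and -0.0282 to 0.14 without 1 library. With at least 50 counts and with nuclear protein-coding genes alone, HSF2 gave -0.0120 and -0.0121, and BAG1 -0.0031 and -0.00040. HSPA4 gave -0.0019 without control replicate 1, and CCT6A -0.0474 to 0.22 without 1 library. With the offsets, HSPA4 was -0.13, HSPH1 -0.0082, BAG1 -0.0940, TCP1 -0.0241, CCT6A -0.0932, CCT8 -0.0059 and HSF2 -0.11. With the offsets and the replicate block these were -0.13, -0.0062, -0.0941, -0.0246, -0.0983, -0.0059 and -0.11, and HSPA9 was -0.00049.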

Other observations

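Rows named as pseudogenes of the chaperone genes took almost no counts. The 47 such rows with any count held 128 to 152 counts a library, equal to 0.0293% to 0.0447% of the counts of the 35 genes. HSPD1 has 9 of these rows, HSPE1 12 and HSPA8 11. The HSPD1 copies held 36 to 77 counts, at most 0.285% of the counts of HSPD1 itself.

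The actin clients of CCT lay in opposite directions in the counts. ACTB had 2.07 and 1.95 counts for each ACTG1 count in the controls, against 0.984 and 0.923 in the knockouts. Neither gene passed edgeR's test, at log2 fold changes of -0.57 (adjusted p = 0.0859) and 0.51 (adjusted p = 0.113). Both passed in DESeq2, with adjusted p-values of 0.00765 and 0.00809, and ACTG1 also passed with the GC and length offsets (adjusted p = 0.0184). The exact two-sided permutation p of the ratio was 0.333, the smallest that 2 against 2 libraries allow. This ratio was picked after the values were seen.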
